A study of Mus musculus with 9 samples.

Results

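The genes described here are 10 regulators and surface genes of muscle formation, *Pax3*, *Pax7*, *Myf5*, *Myod1*, *Myog*, *Myf6*, *Mymk*, *Mymx*, *Cdh15* and *Megf10*. They were taken by symbol, and all 10 were found among the 55471 Ensembl genes of the count table. RNA was sequenced from the gastrocnemius, a calf muscle, of 5 *Shank3Δ11(−/−)* mice (KO1 to KO5), which are homozygous for a deletion of exon 11 of Shank3, and of 4 *Shank3(+/+)* mice (WT1 to WT4). The labels give all 9 mice the strain background C57BL/6 and an age of postnatal day 0 to 1, and name no treatment. The methods name C57BL/6JRj for the heterozygous matings that gave the knock-out mice and C57BL/6 for wildtype mice. No muscle-specific deletion is described. Levels are given as CPM, the count scaled to a common library size after TMM normalization over the 9 mice. Genotypes were compared without KO2 and KO4, which the study left out for their number of reads, so that 3 mice stood against 4, and again with all 9 mice. In the deposited counts KO4 had the highest total of the 9 libraries and KO2 a higher one than KO5. Of the 10 genes, 9 passed the filter on low counts and entered the test, and *Pax3* did not. The question was how high the genes of each step, from progenitor to fused fibre, stand at birth, and whether they differ between the genotypes.

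Muscle fibres form from progenitors that carry the paired-box factors Pax3 and Pax7. The myogenic regulatory factors Myf5, MyoD (*Myod1*), myogenin (*Myog*) and Mrf4 (*Myf6*) are basic helix-loop-helix proteins that bind the E-box together with E proteins, and they commit progenitors, drive myoblasts out of the cell cycle and switch on fibre genes. Differentiated myoblasts then fuse, for which they need the membrane proteins myomaker (*Mymk*) and myomixer (*Mymx*). Around birth the muscle still adds nuclei by fusion, and Pax7-positive cells begin to take their place as satellite cells under the basal lamina.

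To show the regulatory sequence of an early and a late factor, the RefSeq promoters of *Myf5* and *Myog* are given (GRCm38.p6, 250 bases before to 50 bases after the start). Capitals mark the E-box CANNTG and the letters TATAAA, each searched on both strands, and the marked stretches do not overlap. The *Myog* window is chr1:134289754-134290053 on the plus strand and the *Myf5* window chr10:107486085-107486384 on the minus strand.
Myog: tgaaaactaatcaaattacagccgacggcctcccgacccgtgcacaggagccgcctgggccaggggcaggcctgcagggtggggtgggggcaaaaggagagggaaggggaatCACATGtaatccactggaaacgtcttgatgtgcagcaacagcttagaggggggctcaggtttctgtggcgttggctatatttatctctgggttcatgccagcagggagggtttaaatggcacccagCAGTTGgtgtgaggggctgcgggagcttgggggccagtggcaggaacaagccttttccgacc
Myf5: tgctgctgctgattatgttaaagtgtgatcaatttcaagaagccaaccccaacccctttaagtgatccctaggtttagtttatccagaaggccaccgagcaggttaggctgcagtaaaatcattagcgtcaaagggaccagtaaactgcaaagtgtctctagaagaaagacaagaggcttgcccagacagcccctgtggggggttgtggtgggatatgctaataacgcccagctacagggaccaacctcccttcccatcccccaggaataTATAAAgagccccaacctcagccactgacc
The *Myog* window held 2 E-boxes, CACATG at -138 and CAGTTG at -12, counted from the start as 0. The *Myf5* window held 0 E-boxes and TATAAA at 20. The *Pax7* window held neither. Of 32851 mouse promoters of this length, 72.3% held at least 1 E-box and 13.6% held TATAAA. These are matches of letters and not measured binding. The table of promoters also held *Cdh15*, whose sequence is not shown.

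Library totals ranged from 26444372 to 40471957 counts. Shank3 itself was counted at 29.3, 25.7, 31.0, 35.04 and 34.4 CPM in KO1 to KO5 and at 32.8, 32.9, 32.4 and 38.5 CPM in WT1 to WT4, and since the count covers the whole gene it does not check the deletion. *Xist* separated the mice into 4 with 618 to 925 CPM (2 of each genotype, KO3, KO5, WT3 and WT4) and 5 with 3.23 CPM or less, and this split is held beside the results below. The 8 markers of myofibres summed to 54748 to 62167 CPM over the 9 mice, and none of the 8 was at 0. Over all genes tested in the 7 mice, edgeR gave 453 of 21809 an unadjusted p below 0.05 (2.08%), and 0 of these also a Benjamini-Hochberg FDR below 25%, where DESeq2 gave 6 and limma-voom 0.

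Of the progenitor factors, *Pax3* (ENSMUSG00000004872, chromosome 1 from 78101267 to 78197134), which acts in the embryonic progenitors that migrate into the limb, was counted at 0.102 to 0.455 CPM, from 3 to 14 reads per mouse. WT1, WT2 and WT3 were at or below 0.215 CPM, under the 3 mice of the comparison, and WT4 was level with the highest of these (exact permutation test on log2 CPM, 2-sided, p = 0.257 for 3 against 4 mice), and at this depth a difference could not be resolved. *Pax7* (ENSMUSG00000028736, chromosome 4 from 139737062 to 139833528), the factor that marks satellite cells, was counted at 19.3 CPM in KO1, 32.8 in KO2, 21.7 in KO3, 15.9 in KO4 and 24.2 in KO5. In WT1 to WT4 it was counted at 27.3, 31.4, 14.7 and 17.0 CPM. The 3 *Shank3Δ11(−/−)* mice of the comparison lay between the *Shank3(+/+)* mice, with WT1 and WT2 above and WT3 and WT4 below them. The means were 21.8 ± 2.44 CPM (SD, n = 3) and 22.6 ± 8.04 CPM (SD, n = 4), which in edgeR is -0.06 on the log2 scale (standard error 0.24, p = 0.802, and 0.943 in the exact permutation test). *Pax7* spread most over the mice among the 9 genes tested, with a coefficient of variation of 29.4%, above that of 79.7% of all genes tested.

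*Myf5* (ENSMUSG00000000435, chromosome 10 from 107482908 to 107486134), the first of the 4 regulatory factors to appear in the embryo, was counted at 20.6, 21.8, 17.4, 14.97 and 15.06 CPM in KO1 to KO5 and at 21.6, 24.8, 18.6 and 14.6 CPM in WT1 to WT4. The highest and the lowest value were both *Shank3(+/+)* mice, and the groups overlapped (log2 fold change -0.18, standard error 0.18, p = 0.347 from edgeR and 0.486 from the exact permutation test). *Megf10* (ENSMUSG00000024593, chromosome 18 from 57133090 to 57297467), a transmembrane protein with EGF-like repeats that is needed for satellite cell proliferation and is mutated in an early-onset human myopathy, was counted at 59.0, 61.1, 47.5, 40.2 and 43.4 CPM in KO1 to KO5. In *Shank3(+/+)* it was 59.2, 62.6, 53.5 and 42.3 CPM, so that each genotype held high and low mice (log2 fold change -0.13, standard error 0.15, p = 0.408 from edgeR and 0.486 from the exact permutation test). *Cdh15* (ENSMUSG00000031962, chromosome 8 from 122847966 to 122867397), which encodes M-cadherin, the adhesion molecule of satellite cells and myoblasts, was counted at 107, 125, 104, 74.8 and 82.1 CPM in KO1 to KO5. WT1 to WT4 lay closer together, at 101, 114, 103 and 120 CPM (119.56 before rounding in WT4). KO4 and KO5 were below, and KO2 above, all *Shank3(+/+)* mice (log2 fold change -0.17, standard error 0.12, p = 0.195 from edgeR and 0.286 from the exact permutation test).

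*Myod1* (ENSMUSG00000009471, chromosome 7 from 46376474 to 46379099), which encodes MyoD, the factor that commits myoblasts, was the single gene of the 9 with an unadjusted p below 0.05. It was counted at 52.1 CPM in KO1, 48.7 in KO3 and 38.6 in KO5, and at 57.1, 68.1, 54.4 and 65.4 CPM in WT1 to WT4. Each of the 3 *Shank3Δ11(−/−)* mice was below every *Shank3(+/+)* mouse, as in 1.3% of all genes tested. The means were 46.5 ± 7.03 CPM (SD, n = 3) and 61.2 ± 6.53 CPM (SD, n = 4), which in edgeR is -0.41 on the log2 scale with a 95% interval from -0.70 to -0.11 (standard error 0.13, p = 0.0109, adjusted p = 1.00, and 0.0286 in the 2-sided exact permutation test, the smallest it can give for these 7 mice). The gene was not called at the FDR limit. The mice that were left out lay at both ends, with KO2 the highest of the 9 mice at 83.5 CPM and KO4 the lowest at 35.5 CPM. With all 9 mice the log2 fold change was -0.25 (p = 0.265 from edgeR, exact permutation test p = 0.278). Over all 9 mice the groups overlapped, where in 0.363% of all genes tested every *Shank3Δ11(−/−)* mouse was below every *Shank3(+/+)* mouse. Adding KO2 alone to the 7 mice gave -0.14, and adding KO4 alone gave -0.49, both with an adjusted p = 1.00 from edgeR, and the unadjusted p was below 0.05 in the second of these only. Without KO5, which carries the high adipocyte and Schwann cell markers given below, it was -0.29 with an adjusted p = 1.00 from edgeR, and the unadjusted p was no longer below 0.05.

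*Myog* (ENSMUSG00000026459, chromosome 1 from 134289989 to 134292548), which encodes myogenin, the factor of terminal differentiation, drew the most reads of the 10 genes. It was counted at 257, 261, 225, 187 and 204 CPM in KO1 to KO5 and at 239, 302, 222 and 288 CPM in WT1 to WT4. KO4 and KO5 were below all *Shank3(+/+)* mice and the other 3 lay among them (log2 fold change -0.21, standard error 0.14, p = 0.154 from edgeR and 0.257 from the exact permutation test). *Myf6* (ENSMUSG00000035923, chromosome 10 from 107492853 to 107494737), which encodes Mrf4, the regulatory factor most abundant in mature fibres, lies 6718 bases from *Myf5*. It was counted at 104, 84.0, 56.4, 63.0 and 76.4 CPM in KO1 to KO5 and at 84.9, 94.2, 73.8 and 72.2 CPM in WT1 to WT4. KO1 was the highest and KO3 the lowest of all mice, both *Shank3Δ11(−/−)*, so the mean difference was small beside the spread (log2 fold change -0.05, standard error 0.18, p = 0.790 from edgeR and 0.771 from the exact permutation test).

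Of the fusion genes, *Mymk* (ENSMUSG00000009214, chromosome 2 from 27061636 to 27072179), a protein with several membrane passes, was counted at 115, 128, 150, 109 and 105 CPM in KO1 to KO5 (149.6 in KO3 before rounding). In WT1 to WT4 it was counted at 108, 133, 139 and 152 CPM. The ranges of the genotypes nearly coincided (log2 fold change -0.12, standard error 0.15, p = 0.442 from edgeR and 0.543 from the exact permutation test), and *Mymk* spread least over the mice of the 9 genes, with a coefficient of variation of 14.3%. *Mymx* (ENSMUSG00000079471, chromosome 17 from 45600971 to 45602102), a microprotein that completes the opening of the fusion pore, was counted at 40.3, 40.9, 29.7, 25.004 and 30.0 CPM in KO1 to KO5. In WT1 to WT4 it was 36.1, 46.8, 26.4 and 37.8 CPM, and WT3 lay with the low *Shank3Δ11(−/−)* mice (log2 fold change -0.15, standard error 0.19, p = 0.435 from edgeR and 0.600 from the exact permutation test).

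**Figure D1:**
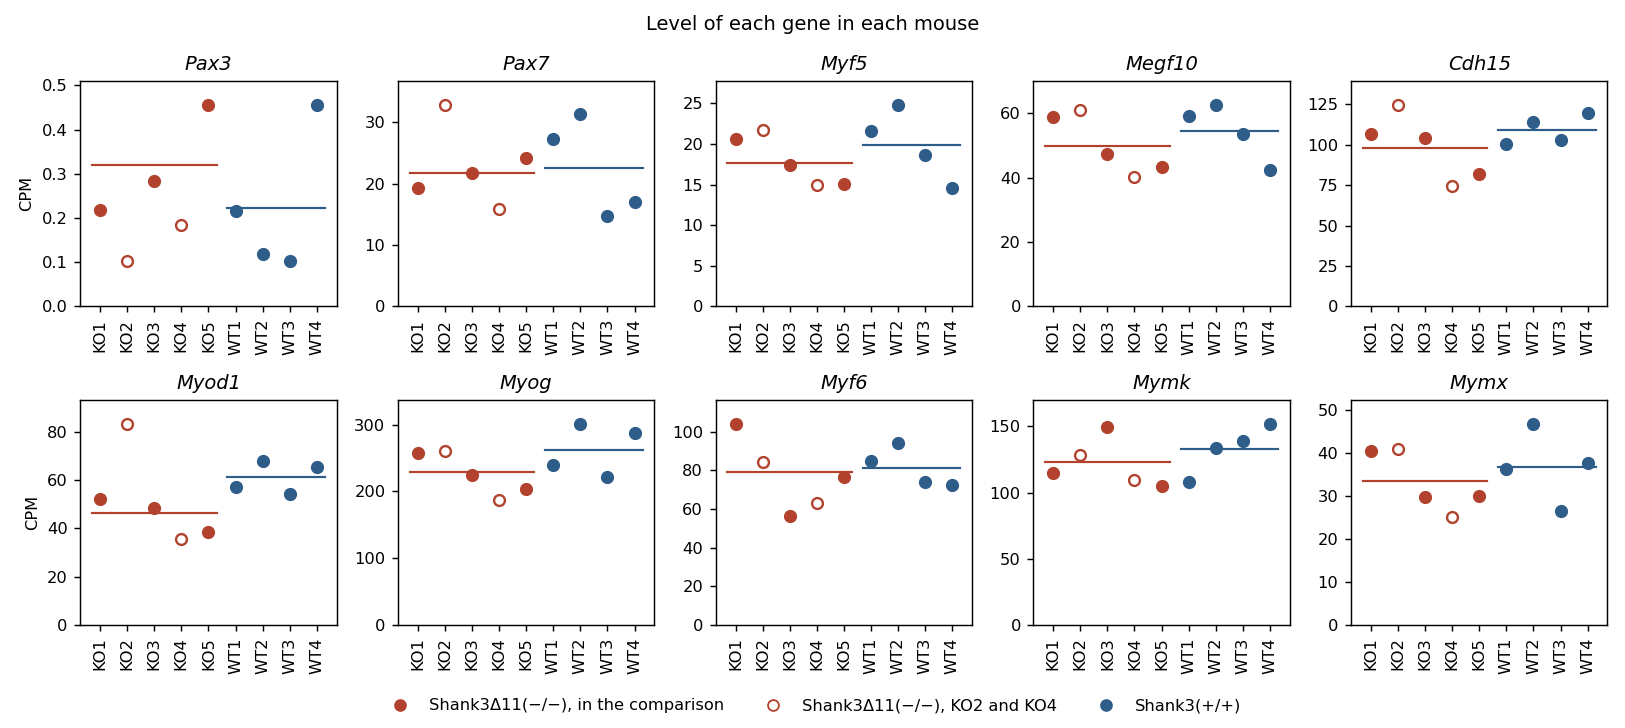
CPM of each of the 10 genes (vertical axis, from 0) in each of the 9 mice (horizontal axis). Filled red points are KO1, KO3 and KO5, open red points KO2 and KO4, blue points *Shank3(+/+)*, and lines are the means of the 3 and 4 mice of the comparison; *Myod1* is the one gene whose filled red points all lie below the blue ones, with KO2 above them.

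All 9 tested genes had a negative log2 fold change in the 7 mice, from -0.41 to -0.05 with a median of -0.15, where 52.2% of all genes tested were lower and the median over all genes was -0.01. With all 9 mice 8 were lower, beside 49.5% of all genes, and *Pax7* was at 0.01. The 9 genes are not independent, since they are measured in the same mice and vary together as described below. One of 9 had an unadjusted p below 0.05 in edgeR, DESeq2 and limma-voom, beside 0.917% of all genes tested that were lower at this p, and 0 of 9 had an FDR below 25% in any of these tools. In all 9 mice 0 of 9 had an unadjusted p below 0.05 in edgeR, beside 2.03% of all genes. The 95% intervals of the 8 other genes included no change. For *Cdh15* and *Myog* they ran from 0.739 to 1.07 and from 0.700 to 1.07 times the *Shank3(+/+)* level, and for *Pax7* from 0.660 to 1.39 times.

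**Figure D2:**
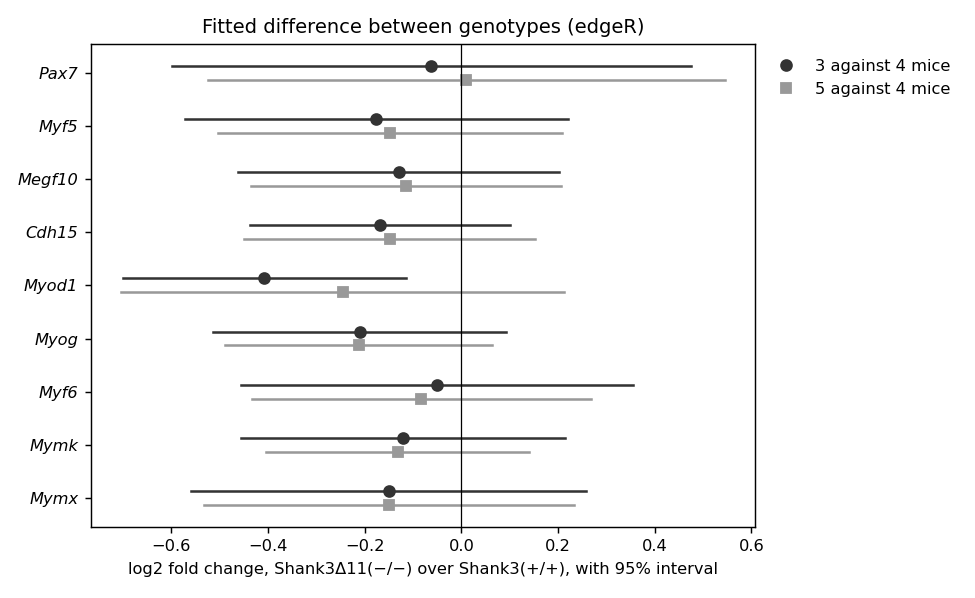
Log2 fold change (horizontal axis, *Shank3Δ11(−/−)* over *Shank3(+/+)*) of the 9 tested genes with the 95% interval of the edgeR fit, for 3 against 4 mice (dark circles) and 5 against 4 mice (grey squares). The interval of *Myod1* lies below 0 for 3 against 4 mice, from -0.70 to -0.11, and reaches 0.21 for 5 against 4.

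To compare levels between genes, CPM was divided by the merged exon length in kb (GENCODE M21). Myogenin led with 162 ± 25.3 CPM per kb (SD, n = 9), 1.94 times the 83.8 ± 12.0 of myomaker, and their ranges did not overlap. *Myf6* followed with 62.4 ± 11.8 CPM per kb and was below *Mymk* in 8 of 9 mice, with overlapping ranges. *Mymx* (33.9 ± 7.20), *Cdh15* (31.8 ± 5.00) and *Myod1* (30.0 ± 8.03) stood together, with differences of their means well within their spread. *Myod1* was 3.33 times *Myf5* (9.03 ± 1.73 CPM per kb), with ranges apart. *Myf5* was above *Megf10* (6.75 ± 1.14) in 9 of 9 mice although the ranges overlapped. *Pax7* was below *Megf10* in 9 of 9 mice, again with overlapping ranges. It had 3.87 ± 1.14 and *Pax3* 0.0383 ± 0.0222 CPM per kb, a step of 101 times between the paired-box genes, or 63.2 times per length of the longest transcript. The paired-box genes thus stood lowest and myogenin highest, with the fusion genes between. The order was the same with the length of the longest transcript. In a bulk library, fewer cells of a type and less RNA per cell cannot be told apart, so these levels do not count progenitors.

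**Figure D3:**
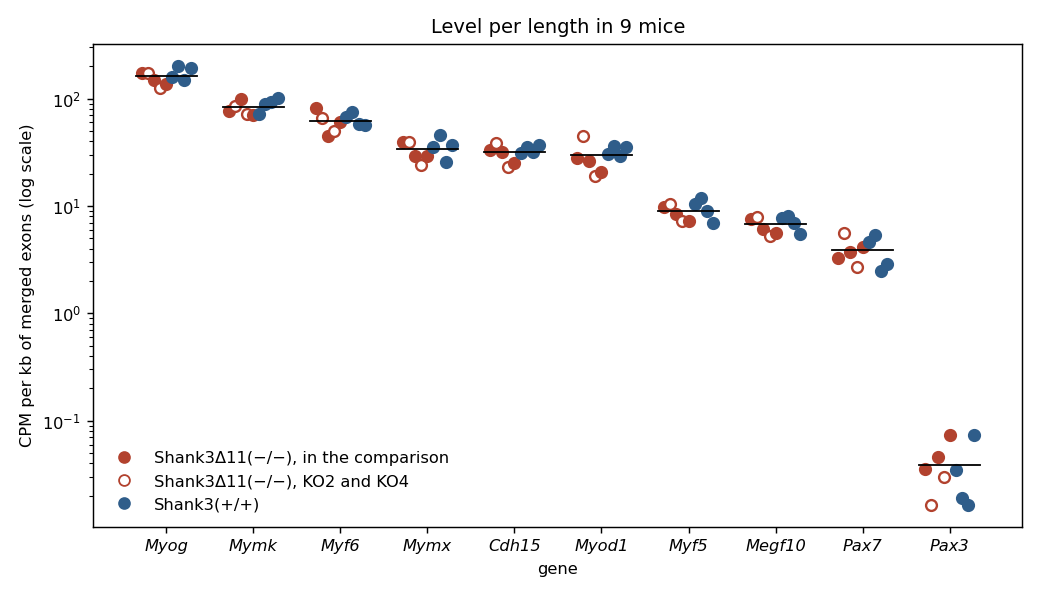
CPM per kb of merged exons (vertical axis, log scale) of the 10 genes in order of their mean (black line), with a point per mouse coloured by genotype. Myogenin stands at 125 to 202 in every mouse, *Pax7* at 2.50 to 5.59 and *Pax3* at 0.0165 to 0.0736.

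The spread between mice differed from gene to gene. For the 9 tested genes the coefficient of variation over the 9 mice was 14.3% to 29.4%. Each value rested on 397 to 10210 reads. The median over all genes tested was 16.4%. Much of the spread was shared between the genes. KO4 held the lowest value of 5 of the 9 genes and was among the 3 lowest mice for 9 of 9, and KO5 was among the 3 lowest for 6. WT2 held the highest value of 4 genes and was among the 3 highest for 8, and KO2 for 7. The 10 genes summed to 566 CPM in KO4 and 619 in KO5, to 877 in WT2 and 838 in KO2, and to 700 to 809 in the other 5 mice.

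Over the 9 mice, 32 of the 36 pairs of tested genes had a positive correlation of log2 CPM, with a median Pearson's r of 0.61. The same share over all pairs of genes was not computed, so it is not known whether these counts are particular to this set. After Benjamini-Hochberg adjustment over the 36 pairs, 5 had a p below 0.05 (exact permutation test over pairings, 2-sided). The closest pair was *Myf5* and *Megf10*, with r = 0.97 and Spearman's rho = 0.98 (exact permutation p = 2.48e-05 and 4.96e-05, adjusted p = 0.000893 and 0.00179). Without the 2 mice farthest from the median of *Myf5*, r was 0.98. The ratio of *Myf5* to *Megf10* per length stayed between 1.28 and 1.47 in every mouse, while each gene varied 1.70 and 1.56 times.
The adhesion gene *Cdh15* went with *Myod1*, with r = 0.94 (exact permutation p = 0.000168, adjusted p = 0.00303) and r = 0.91 without KO2 and KO4, the 2 farthest mice. Spearman's rho was 0.83 (exact permutation p = 0.00827, adjusted p = 0.0595).

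Myogenin formed the other 3 pairs, with *Mymx* at r = 0.90 and rho = 0.90 (exact permutation p = 0.00117 and 0.00203, adjusted p = 0.0140 and 0.0365), with *Cdh15* at r = 0.88 and rho = 0.88 (exact permutation p = 0.00155 and 0.00308, adjusted p = 0.0140 and 0.0369) and with *Myod1* at r = 0.85 and rho = 0.87 (exact permutation p = 0.00427 and 0.00451, adjusted p = 0.0307 and 0.0406). Without the 2 farthest mice these were r = 0.79, 0.86 and 0.89. Taken as deviations from the mean of the own genotype, the 5 pairs had r of 0.97, 0.94, 0.93, 0.87 and 0.81 in the order given. As deviations from the mean of the own *Xist* class, chosen after seeing the data, they had r of 0.97, 0.96, 0.94, 0.89 and 0.84.

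None of the pairs of *Mymk* was among these 5. Its 8 pairs had r from -0.32 with *Myf6* to 0.65 with *Cdh15*, a median of 0.06, where the 28 pairs without it ran from 0.37 upward with a median of 0.67. With *Mymx*, the second protein of the same fusion step, r was 0.14 and rho 0.10 (exact permutation p = 0.717 and 0.810, adjusted p = 0.759 and 0.833). The ratio of *Mymk* to *Mymx* per length ranged from 1.94 in KO1 and WT2 to 3.42 in KO3 and 3.58 in WT3. It lay between 2.38 and 3.58 in the 4 mice with high *Xist* and between 1.94 and 2.98 in the other 5, which overlap. As deviations from the mean of the own *Xist* class, the 8 pairs of *Mymk* ran higher, from -0.06 with *Myf6* to 0.78 with *Cdh15*, with 0.46 for *Mymx*, and the 28 other pairs from 0.23 upward. Whether the correlations of *Mymk* differ from those of the other genes was not tested.

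**Figure D4:**
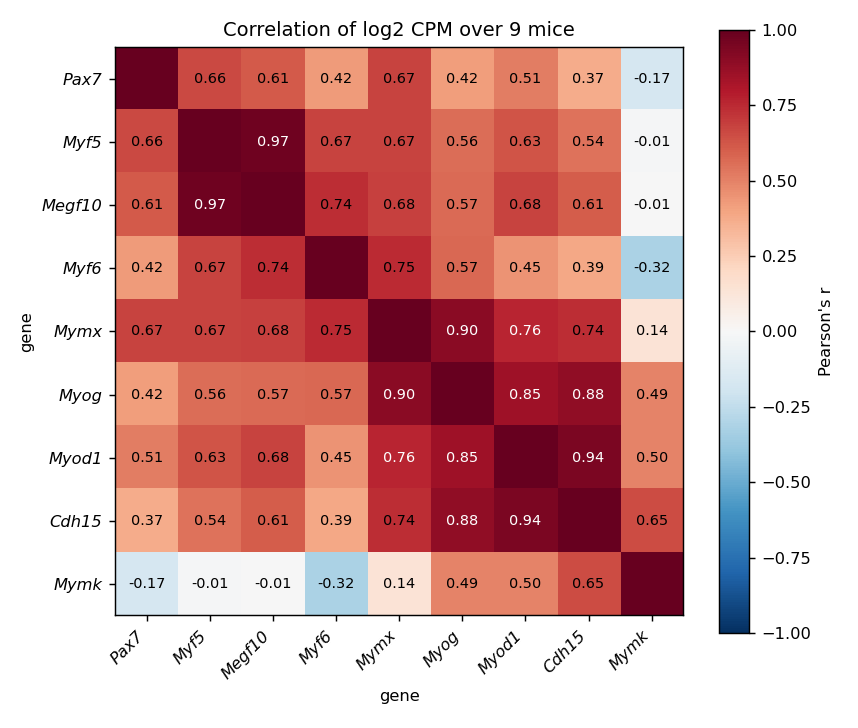
Pearson's r of log2 CPM over the 9 mice for each pair of the 9 tested genes (both axes), on a colour scale from -1 (blue) to 1 (red). *Myf5* with *Megf10* (0.97) and the block of *Mymx*, *Myog*, *Myod1* and *Cdh15* (0.74 to 0.94) stand out in red, and *Mymk* forms the pale last row, with 4 of 8 values below 0.

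For 4 members, the 3 genes with the most similar log2 CPM over the 9 mice were sought among 21734 others, and none of these 12 was one of the 10 genes. For *Pax7* they were *Cbfa2t3*, *Eme2* and *Fbxl19* (r = 0.97, 0.96 and 0.96), and for *Myod1* they were *Gm20492*, *Elmo3* and *Ache* (r = 0.98, 0.96 and 0.96). For *Myog* they were *Fam171a2*, *Gm42901* and *Dock3* (r = 0.94, 0.94 and 0.93) and for *Mymk* they were *G530011O06Rik*, *Ankrd54* and *Brf2* (r = 0.96, 0.96 and 0.95). With 9 points, 15 to 51 genes reached r = 0.9 with each of these 4, so the names describe these mice only. *Cdh15* was the 9th closest gene to *Myod1*, and *Mymx* the 10th closest to *Myog*. *Myog* was only the 139th closest to *Myod1*. The closest of the tested genes to *Pax7* was *Mymx*, at rank 1229, and to *Mymk* it was *Cdh15*, at rank 1097.

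The division of the mice by *Xist* did not coincide with genotype, and the difference in each class was read separately. In the 4 mice with high *Xist*, *Myod1* was 48.7 and 38.6 CPM in KO3 and KO5 and 54.4 and 65.4 CPM in WT3 and WT4. In the 5 with low *Xist* it was 52.1, 83.5 and 35.5 CPM in KO1, KO2 and KO4 and 57.1 and 68.1 CPM in WT1 and WT2. With the class as a covariate in the 7 mice the log2 fold change of *Myod1* was -0.39 (adjusted p = 1.00 from edgeR), again with an unadjusted p below 0.05. *Pax7* was higher in *Shank3Δ11(−/−)* in the class with high *Xist*, with means of 23.0 against 15.8 CPM, and lower in the other, with means of 22.7 against 29.3 CPM, and this contrast was not tested. In the class with low *Xist* the genotypes overlapped. *Pax7* was 19.3, 32.8 and 15.9 CPM in KO1, KO2 and KO4 and 27.3 and 31.4 CPM in WT1 and WT2 there. *Myf5* was 14.6 to 18.6 CPM in the mice with high *Xist* and 14.97 to 24.8 CPM in the others.

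Further genes of the pathway were read from lists of known genes, chosen with earlier results of these data in view and so not independent of them. Their counts stand beside the shares over all genes tested given above, with 7 mice 52.2% lower, 2.08% at an unadjusted p below 0.05, 0.917% lower at this p and 1.16% higher. Of 20 genes of satellite cells and myoblasts, 6 were higher and 14 lower in the 7 mice, where the median on the log2 scale was -0.07. The one with an unadjusted p below 0.05 was *Chodl*, a C-type lectin, at 63.4, 67.1 and 44.4 CPM in KO1, KO3 and KO5 and 63.5 to 78.5 CPM in *Shank3(+/+)* (log2 fold change -0.33, adjusted p = 1.00 from edgeR). Of 19 E proteins and antagonists of the regulatory factors, 7 were higher and 12 lower (median -0.04). Here *Twist2*, which blocks MyoD activity, had a log2 fold change of 0.97 at an unadjusted p below 0.05 (adjusted p = 1.00 from edgeR), with 8.95 CPM in KO5 and 1.94 to 3.94 CPM in the other 8 mice.

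Of 42 genes of myoblast adhesion and fusion, 18 were higher and 24 lower (median -0.02), and in edgeR none (0) reached an unadjusted p of 0.05, where DESeq2 gave 1 and limma-voom 0. Of 31 genes of differentiated fibres, 10 were higher and 21 lower (median -0.03), and 2 had an unadjusted p below 0.05, both lower. These were *Tnnc1* and *Tnnt1*, troponin subunits of slow fibres, with log2 fold changes of -0.43 and -0.34 (adjusted p = 1.00 from edgeR for both). *Tnnc1* was 344, 368 and 239 CPM in KO1, KO3 and KO5 and 370 to 485 CPM in *Shank3(+/+)* (370.02 in WT1 before rounding). Of 12 genes of the cell cycle, 4 were higher and 8 lower (median -0.04), and 0 reached an unadjusted p of 0.05 with edgeR, DESeq2 or limma-voom. They summed to 747 and 799 CPM in KO3 and WT3 and to 502 to 701 CPM in the other mice. With all 9 mice, where 0.874% of all genes were lower and 1.16% higher at this p, the counts of higher and lower genes were 7 and 13 for satellite cells and myoblasts, 9 and 10 for E proteins and antagonists, 21 and 21 for fusion and 11 and 20 for differentiation. Of the 4 genes named from the 7 mice, *Tnnc1* alone kept an unadjusted p below 0.05 there. In those 9 mice *Sdc4*, a syndecan of the satellite cell surface, and *Cd81*, a tetraspanin of the fusion list, were higher at such a p, both named after their values were seen (log2 fold changes 0.22 and 0.40, adjusted p = 1.00 from edgeR for both). *Cd81* was 203 to 316 CPM in *Shank3Δ11(−/−)* and 187 to 229 CPM in *Shank3(+/+)*. None of the genes of these lists had an FDR below 25% in edgeR with 7 or 9 mice. Without KO5 the 4 genes named from the 7 mice had no unadjusted p below 0.05, with log2 fold changes of -0.17 for *Chodl*, 0.34 for *Twist2*, -0.27 for *Tnnc1* and -0.20 for *Tnnt1*.

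Markers of other cell types differed between the mice as well. The 8 markers of fibroblasts and fibro-adipogenic progenitors summed to 23111, 18185, 20992, 31326 and 20171 CPM in KO1 to KO5 and to 20818, 15089, 23694 and 24787 CPM in WT1 to WT4. The highest sum was in KO4, where the 10 genes summed lowest, and the lowest in WT2, where they summed highest, but WT4 was high and KO5 low in fibroblast markers with 809 and 619 CPM of the 10 genes. The genotypes overlapped. Of this list 5 were higher and 3 lower in the 7 mice (median log2 fold change 0.07), and 7 higher and 1 lower in all 9 (median 0.16). *Ly6a* and *Dpt* were higher in the 7 mice at an unadjusted p below 0.05 (log2 fold changes 0.48 and 0.77, adjusted p = 1.00 from edgeR for both). Both kept such a p with all 9 mice, at 0.61 and 0.60. Without KO5 *Dpt* did not reach it, at a log2 fold change of 0.50. The 8 adipocyte markers summed to 1201 CPM in KO5 and 233 to 467 CPM in the others. All 6 that were tested were higher with 7 and with 9 mice. With 7 mice 5 were higher at an unadjusted p below 0.05 in edgeR, beside 1.16% of all genes, but 2 with 9 mice and 2 in limma-voom. *Pparg*, *Cfd* and *Fabp4* had the smallest p of these 5, with 145 CPM of *Cfd* in KO5. Their log2 fold changes went from 1.05, 8.70 and 0.96 with 7 mice to 0.50, 5.20 and 0.33 without KO5. *Pparg* and *Fabp4* had no unadjusted p below 0.05 without KO5 or with all 9 mice. The 8 markers of Schwann cells summed to 757 CPM in KO5 and 333 to 465 CPM in the others, with 7 of 8 higher with 7 and with 9 mice. Markers of tendon and cartilage were highest in KO4, at 478 CPM against 202 to 294 CPM, with 6 of 7 tested lower with 7 mice and 3 of 7 with 9. Those of erythroid cells were highest in KO1, at 5780 CPM against 1226 to 2193 CPM, with 7 of 7 tested higher with 7 and with 9 mice. All 8 endothelial markers had a fold change above 0 with 7 and with 9 mice, and 0 of them an unadjusted p below 0.05 in edgeR, DESeq2 or limma-voom. They summed to 844, 879 and 894 CPM in KO1, KO3 and KO5 and to 769 to 840 CPM in WT1 to WT4. KO1, at 843.61 CPM, was only just above the highest of these, at 839.56 CPM. How many genes separated in this direction was not counted. KO2 was the lowest of all mice at 702 CPM and KO4 the highest at 994 CPM. Of the 8 leukocyte markers 6 were higher with 7 and with 9 mice, and they summed to 133 to 201 CPM. Epidermal markers summed to 13.2 to 66.0 CPM, with 7 of 8 lower with 7 mice and 8 of 8 with 9. No marker of these lists was at 0 in all mice. Their part in the levels of the myogenic genes was not tested.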

How the data were processed

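The deposited values are raw counts per gene from featureCounts, 1 library for each of 9 mice. The authors' aligner was HISAT2 on mm10, with a filter for concordant alignments. Annotation release, strandedness and the treatment of multi-mapped reads: not given in the sources used here. Symbols came from the supplied name table, and positions and lengths from GENCODE M21 (GRCm38).

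The members and gene lists were chosen with earlier results of these data known. Genes were filtered with filterByExpr (minimum count 10, total 15), leaving 21809 for 7 mice and 21735 for 9. Fits used edgeR 4.0.16 in R 4.3.3, with TMM and the quasi-likelihood F test (robust), and p-values were adjusted by Benjamini-Hochberg over all genes tested (adjusted p, FDR). Exact permutation tests and correlations used log2 CPM (prior count 2). The exact test cannot go below 0.0286 with 7 mice or 0.00794 with 9. Named beside the 10 genes are, of each list, up to 3 genes per direction with the smallest p below 0.05, and the 3 genes most like *Pax7*, *Myod1*, *Myog* and *Mymk*. Single genes of the Schwann cell list are not reported here. The mice of a genotype are taken as separate animals. Alternatives were 20 further fits, with DESeq2 1.42.0 and limma 3.58.1 among them. The 7-mouse fits of edgeR, DESeq2 and limma-voom were tested on simulated data. Figures used matplotlib 3.10.9.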

Additional observations from a re-analysis of the deposited data

How the results depend on the processing

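The log2 fold changes of *Myf5*, *Megf10* and *Myod1* stayed negative in all 20 alternatives, from -0.30 to -0.05, from -0.26 to -0.04 and from -0.50 to -0.14. *Myod1* had an unadjusted p below 0.05 in 14 of them, and not with the replicate block, at -0.15 in 7 mice and -0.22 in 9. The number of the 9 genes with such a p was 0 with all 9 mice, with all mice but KO4, with the *Xist* class in 9 mice and with a replicate block in 7 or 9 mice, and from 0 (without KO5) to 1 when each mouse was left out. Adding KO2 or KO4 alone was chosen after seeing the data. The number lower was 4 with the block in 7 mice and 7 to 9 when each mouse was left out. *Pax7* was at 0.12 with all mice but KO4, 0.085 and 0.027 with the *Xist* class in 7 and 9 mice, 0.010 with all 9 mice, 0.018 and 0.0057 with the block in 7 and 9 mice, and from -0.21 to 0.14 when each mouse was left out. *Myf6* was at -0.30 without KO1 and 0.14 without KO3, with 0.03 without WT2. The replicate block in 7 mice turned *Myog* (0.056), *Mymk* (0.093), *Mymx* (0.16) and *Cdh15* (0.051) above 0; the cause was not tested. In that fit the replicate numbers leave the genotype to 2 pairs of mice. The labels do not say that the numbers pair the mice, and same-numbered mice deviated together with r = 0.37, 0.05, 0.36 and 0.10 for numbers 1 to 4, where KO2 was closest to WT1 (r = 0.27). Over all genes, those with an unadjusted p below 0.05 numbered 972 without the filter, 844 with the block in 7 mice, 745 with all mice but KO2, and 224 (without KO5) to 968 (without KO1). Those at an FDR below 25% numbered 6 with DESeq2, 1 with the *Xist* class in 7 mice, 1 without the filter, 9 and 2 with the block in 7 and 9 mice, and 0 to 15 when each mouse was left out, the most without KO1. *Pax3*, with 3 to 14 reads per mouse, is limited by depth. Counts cover whole genes.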

Other observations

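The level of *Myod1* was also read relative to *Cdh15* and *Myog*, which correlated with it over the mice. These ratios were chosen after the values were seen and are given without a test. Per length, the ratio of *Cdh15* to *Myod1* was 1.17, 1.23, 1.21 and 1.22 in KO1, KO3, KO4 and KO5, and 1.01, 0.958, 1.08 and 1.05 in WT1 to WT4. KO2 went the other way, at 0.854, the lowest of the 9 mice. The ratio of *Myog* to *Myod1* has the same denominator, so it is not a separate observation, and it had the same pattern. It was 6.14, 5.75, 6.56 and 6.57 in KO1, KO3, KO4 and KO5, 5.22, 5.51, 5.08 and 5.48 in WT1 to WT4, and 3.89 in KO2. KO4, which the study left out, stood with KO1, KO3 and KO5 in both ratios although its level of all 9 tested genes was low. The ratio of *Myod1* to *Myf5* did not separate these mice. It was 2.84, 3.13, 2.65 and 2.87 in KO1, KO3, KO4 and KO5, 2.96, 3.08, 3.28 and 5.02 in WT1 to WT4, and 4.29 in KO2.

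The ratio of *Mymx* to *Myog* per length was among the steadier ones, from 0.173 to 0.228. The ratio of *Myog* to *Pax7* was the most variable of the 8 computed, from 31.2 in KO2 to 66.5 in WT4. It averaged 41.9 ± 9.67 (SD, n = 3) in KO1, KO3 and KO5 and 49.5 ± 15.9 (SD, n = 4) in *Shank3(+/+)*, a difference smaller than the spread within either genotype.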
